A study of Homo sapiens with 6 samples.

Results

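Selenoprotein genes encode the proteins that carry selenocysteine, an amino acid with selenium in place of the sulphur of cysteine. The list taken here held 10 such genes, named by symbol: the glutathione peroxidases GPX1 and GPX4, the thioredoxin reductases TXNRD1 and TXNRD2, and SELENOF, SELENOH, SELENOK, SELENOS, SELENOT and SELENOW. A gene entered the description when a transcript counted in all libraries could be matched by its identifier to a GENCODE transcript of that gene. Of the 10 genes, 4 had such a transcript, namely TXNRD1, TXNRD2, SELENOK and SELENOS, out of the 37192 genes that the 37339 matched transcripts of the series belong to. The other 6 were not analysed here.

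Selenocysteine is inserted at a UGA codon, which otherwise ends translation. The ribosome reads it as selenocysteine only when the 3′ UTR of the same mRNA folds into a SECIS element, a hairpin bound by SECISBP2, while the elongation factor EEFSEC delivers the charged selenocysteine tRNA. When the codon is read as a stop, the mRNA of some selenoproteins becomes a substrate of nonsense-mediated decay, so that selenoprotein mRNAs are a textbook case of a link between translation and mRNA stability. TXNRD1 is the cytosolic and TXNRD2 the mitochondrial enzyme that uses NADPH to reduce thioredoxin. SELENOK and SELENOS are small membrane proteins of the endoplasmic reticulum (ER) that bind p97 (VCP) and the derlins, components of ER-associated degradation.

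The study sequenced untreated K562 cells in 4 libraries of total RNA-seq and 2 of PRO-seq. K562 is a human line from chronic myelogenous leukemia, here grown in RPMI-1640 with fetal bovine serum and penicillin/streptomycin. According to the methods, the cells of both assays came from 1 flask, so the spread between libraries does not include differences between cultures. RNA-seq of rRNA-depleted total RNA measures steady-state RNA, and PRO-seq counts engaged RNA polymerases over the transcription unit (TU). The study takes this as a measure of transcription, but polymerase occupancy also depends on the speed of elongation, which these libraries cannot tell apart from the rate of transcription. The study also corrected for published elongation rates of K562 and judged that their effects appeared limited. Its main half-lives came from other, published K562 data that it found less variable, and the libraries described here served it for comparison. The comparison asks how the RNA-seq level of a gene stands against its transcription, which the study takes as a relative RNA half-life at steady state. In libraries of whole cultures, fewer cells that express a gene and less RNA per cell cannot be told apart.

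The libraries held between 5732780 and 9002746 counts on TUs for RNA-seq, and 6993816 and 7245632 for PRO-seq. Counts were turned into TPM, a level divided by length and scaled to the same total in each library. Length was that of the summed exons in RNA-seq, and in PRO-seq the span of the TU less 1000 bp. All 8 erythroid markers listed for K562 were counted in RNA-seq, from 13.2 TPM for HBZ to 6287 TPM for HBG2, both hemoglobin chains. The 5 markers of other lineages that were counted did not exceed 0.483 TPM, that of ALB.

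The codon that defines these genes is shown first, with the bases around it, and its place among the exons of the 4 counted transcripts follows. Each line below holds 15 bases before the codon, the codon in capitals and 9 bases after it, 5′ to 3′ on the coding strand, from the counted GENCODE transcript. The line of TXNRD3, the thioredoxin glutathione reductase, is added for comparison.
TXNRD1: ctccaggctggctgcTGAggttaagcc
TXNRD2: acggtgacaggctgcTGAgggtaagcg
TXNRD3: actcagaaaggctgcTGAggctaggcc
SELENOK: ccaatggctggtggaTGAggaaggtaa
SELENOS: ccgtcatctggcggaTGAggctaagaa

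The thioredoxin reductases TXNRD1 and TXNRD2 shared an unbroken run of 11 bases, GGCTGCTGAGG, in which the codon TGA follows a glycine and a cysteine codon, and 18 of their 27 bases were identical. TXNRD3 held the same 11 bases. The 2 ER proteins shared a run of 8 bases, GGATGAGG, and 16 of 27 bases. This likeness was not particular to them, since SELENOS and TXNRD3 also shared a run of 8 bases, TGAGGCTA, with 14 of 27 identical. SELENOS also had 16 of 27 bases in common with TXNRD1 and with TXNRD2. Between TXNRD1 or TXNRD2 and the ER proteins, the run through the codon was TGAGG, and between 12 and 16 of 27 bases were identical. In all 4 genes a G followed the TGA. That base also followed 3 of the 10 other selenocysteine codons annotated in counted transcripts (30%) and 1478 of the 4113 TGA stop codons of the mRNAs with a half-life estimate (35.9%).

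All 4 genes had the selenocysteine codon at the very end of the coding sequence, as did TXNRD3 (codon 642 of 643, in the last of 16 exons). In TXNRD1 it was codon 648 of 649, at chr12:104742191-104742193 (GRCh37, plus strand), in the last of 17 exons, so that no exon junction lay downstream. In TXNRD2 it was codon 500 of 501, at chr22:19864634-19864636 (GRCh37, minus strand), in exon 16 of 17, with the last junction 71 nt downstream. SELENOK had it as codon 92 of 94, at chr3:53919858-53919860 (GRCh37, minus strand), in exon 4 of 5 and 5 nt before the last junction. SELENOS had it as codon 188 of 189, at chr15:101812982-101812984 (GRCh37, minus strand), in exon 6 of 7 and 13 nt before the last junction. These places are those in the counted transcript, which for SELENOS is not the canonical one. It holds 829 exon bases that the canonical SELENOS transcript lacks, and the junctions of the canonical transcript were not examined. Some other selenoproteins in the counted set had the codon earlier, such as codon 95 of 116 in MSRB1, codon 405 of 533 in SELENON and codon 60 of 448 in SEPHS2, whose transcript has a single exon.

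The counted TUs differed in size. TXNRD1 (chr12:104609557-104744085, GRCh37) spans 134529 bp with 3860 nt of exons, of which 1886 nt are 3′ UTR, and its span was longer than that of 90.9% of the 8733 mRNAs with a half-life estimate. TXNRD2 (chr22:19863045-19929343, GRCh37) spans 66299 bp with 1874 nt of exons and a 3′ UTR of 351 nt. The TUs of the ER proteins are short. SELENOK (chr3:53918444-53925886, GRCh37) spans 7443 bp with 1497 nt of exons, and SELENOS (chr15:101811022-101817655, GRCh37) spans 6634 bp with 1439 nt of exons, against a median mRNA span of 29515 bp and a median exon length of 3064 nt. TXNRD2 stood out in composition, with 62.1% G+C in its transcript (median mRNA 48.6%) and 8.54 splice junctions per 1000 nt (median mRNA 3.08), higher than in 98.4% of mRNAs. TXNRD1 and SELENOK lay below the median mRNA in G+C, at 43.8% and 41.3%, and SELENOS was near it at 49.1%.

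TXNRD1 had by far the highest RNA-seq level of the 4 genes at a middling PRO-seq level. Its RNA-seq TPM was 290.7, 290.3, 306.2 and 292.7 in replicates 1 to 4 (mean 295.0 ± 7.55 SD, n = 4), from 15436 counts. Its PRO-seq TPM was 43.8 and 46.0 (mean 44.9 ± 1.56 SD, n = 2), from 3131 counts. The RNA-seq level was at the 93.9 percentile of mRNAs and the PRO-seq level at the 47.4 percentile.

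TXNRD2 showed the opposite order. Its RNA-seq TPM was 75.7, 86.2, 73.3 and 75.1 (mean 77.6 ± 5.82 SD, n = 4), from 1996 counts, with replicate 2 the highest. Its PRO-seq TPM was 121.8 and 135.5 (mean 128.7 ± 9.66 SD, n = 2), from 4389 counts. The mitochondrial enzyme thus had the most PRO-seq signal of the 4 genes, at the 88.3 percentile of mRNAs, with an RNA-seq level at the 75.3 percentile.

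SELENOK had the lowest level in both assays. Its RNA-seq TPM was 44.8, 45.4, 47.1 and 46.6 (mean 46.0 ± 1.03 SD, n = 4), from 933 counts. Its PRO-seq TPM was 19.2 and 25.3 (mean 22.3 ± 4.32 SD, n = 2), from only 75 counts, which makes it the least certain PRO-seq value of the 4. It was at the 61.6 percentile of mRNAs in RNA-seq and at the 18.5 percentile in PRO-seq.

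SELENOS was little above SELENOK in RNA-seq but had far more PRO-seq signal. Its RNA-seq TPM was 56.5, 56.0, 55.3 and 56.8 (mean 56.2 ± 0.632 SD, n = 4), from 1100 counts. Its PRO-seq TPM was 72.1 and 70.7 (mean 71.4 ± 0.970 SD, n = 2), from 210 counts. The 2 percentiles lay close together, at 67.1 for RNA-seq and 68.9 for PRO-seq.

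**Figure D1:**
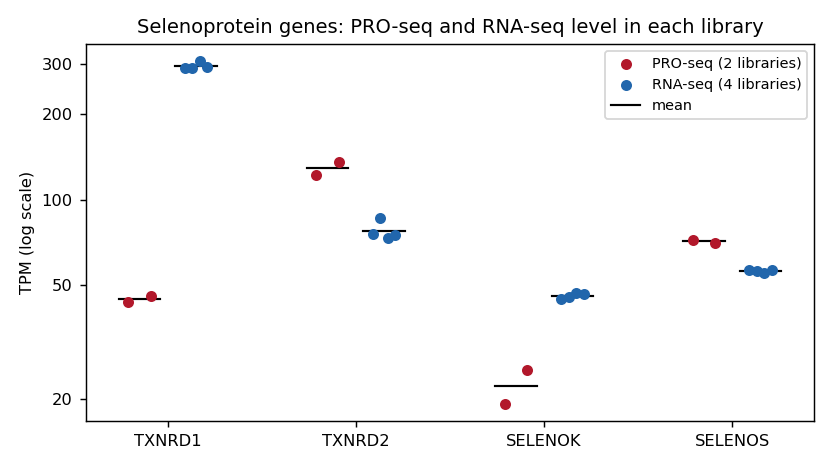
PRO-seq and RNA-seq level of the 4 genes in TPM on a log axis, with 1 point per library (2 PRO-seq and 4 RNA-seq libraries) and a line at the mean. The RNA-seq points of TXNRD1 lie near 295.0 TPM, far above its PRO-seq points, whereas those of TXNRD2 lie below its PRO-seq points.

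In RNA-seq the order was TXNRD1, TXNRD2, SELENOS and SELENOK in 4 of 4 libraries. The means of neighbours differed 3.80-fold, 1.38-fold and 1.22-fold, and no neighbours overlapped: the lowest TXNRD2 value was 73.3 TPM against 56.8 TPM for the highest of SELENOS, and the lowest SELENOS value was 55.3 TPM against 47.1 TPM for the highest of SELENOK. In PRO-seq the order was TXNRD2, SELENOS, TXNRD1 and SELENOK in 2 of 2 libraries, with means that differed 1.80-fold, 1.59-fold and 2.02-fold between neighbours, again without overlap. The pair of reductases changed places between the assays. In each RNA-seq library TXNRD1 was between 3.37 and 4.17 times TXNRD2, and in each PRO-seq library it was between 0.340 and 0.359 times TXNRD2.

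Set against PRO-seq, 3 of the 4 genes were above the median mRNA. Relative half-life was the ratio of the RNA-seq to the PRO-seq TPM where these exceeded 1 and 10 TPM, which all 4 genes passed, and was tested against the median mRNA with edgeR's quasi-likelihood test, adjusted by Benjamini-Hochberg over 9925 TUs. TXNRD1, SELENOK and SELENOS were called above the median mRNA and none of the 4 below it. Of all TUs tested, 40.4% were called above and 49.9% below, so that a call by itself is common. Of the 8733 mRNAs among them, 3963 were called above and 3923 below. The share of 3 in 4 was not tested against either background. The median of the 4 genes was 0.98 on the log2 scale, against 0.00 for the median mRNA and a middle 50% of mRNAs from -1.06 to 1.08.

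TXNRD1 was 10.2-fold above the median mRNA (log2 3.35, SE 0.0423, edgeR adjusted p = 1.24e-33), at the 97.7 percentile of mRNAs. Over the 8 ways to combine 1 library of each assay, the log2 value ran from 3.30 to 3.42 and was above in 8 of 8 combinations. The size depends on the start taken for the TU. Of the 19 annotated TXNRD1 transcripts, 8 start over 10000 bp inside the counted span and reach its end, the first of them 70903 bp inside. With the PRO-seq length taken from that start (a span of 63626 bp, less 1000 bp), the log2 value was 2.26 (SE 0.0411), still above the median mRNA. Only the length was changed, and the PRO-seq counts were still those of the whole counted span, so the shift is set by the length taken.

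TXNRD2 was not told apart from the median mRNA (log2 -0.08, SE 0.0570, edgeR adjusted p = 0.171), with 1 of 8 combinations above and values from -0.24 to 0.12. Of its 21 annotated transcripts, 8 start over 10000 bp inside the counted span and reach its end, the first 25454 bp inside. With the length from that start, and the counts again left unchanged, the log2 value was -0.79 (SE 0.0563, edgeR adjusted p = 3.02e-14), below the median mRNA. This shift is set by the length taken, and its p-value adds no evidence from the counts. Without RNA-seq replicate 2, in which TXNRD2 was highest, it was also called below, at -0.14 (edgeR adjusted p = 0.0311). The absence of a call for TXNRD2 thus held only for some settings.

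SELENOK was 3.20-fold above the median mRNA (log2 1.68, SE 0.149, edgeR adjusted p = 6.69e-12), at the 85.2 percentile of mRNAs and above in 8 of 8 combinations, from 1.48 to 1.91. SELENOS was 1.22-fold above (log2 0.29, SE 0.107, edgeR adjusted p = 0.0121), from 0.24 to 0.33 in the 8 combinations. The small difference of SELENOS was no longer called without PRO-seq replicate 2 (edgeR adjusted p = 0.0902), nor with DESeq2 on all libraries (adjusted p = 0.0562). Its counted transcript is also not the canonical one: it holds 610 of the 1218 exon bases of the canonical transcript and 829 others. With the exon length limited to the 610 shared bases, the log2 value of SELENOS was 1.53 (SE 0.101). The RNA-seq counts were still those over all 1439 nt of exons, so the rise is set by the shorter length and is not a measured value for the canonical transcript.

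**Figure D2:**
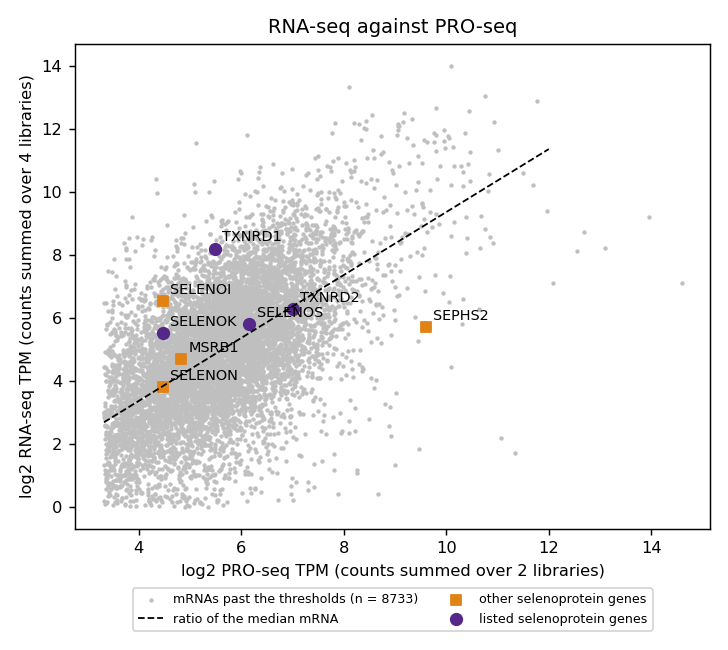
RNA-seq against PRO-seq level, both as log2 TPM of summed counts, for the 8733 mRNAs with a half-life estimate (grey), the 4 listed genes (circles) and 4 other selenoprotein genes (squares), with the ratio of the median mRNA as a dashed line. TXNRD1 and SELENOK lie above the line, TXNRD2 and SELENOS lie close to it, and SEPHS2 lies far below.

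The genes also differed from each other in relative half-life, in a comparison in which the median mRNA cancels. TXNRD1 exceeded TXNRD2 by 3.23 to 3.62 on the log2 scale over the 8 library combinations, SELENOS by 2.98 to 3.19 and SELENOK by 1.46 to 1.84. SELENOK exceeded SELENOS by 1.15 to 1.67 and TXNRD2 by 1.50 to 2.02. SELENOS exceeded TXNRD2 by 0.14 to 0.53. All 6 pairs had the same sign in 8 of 8 combinations, and the exact two-sided permutation p over the libraries was 0.0667 for each, before and after Benjamini-Hochberg adjustment over the 6 pairs. That is the smallest p that this exact test can give with 4 against 2 libraries, so it cannot reach 0.05. The distances between genes also depended on the lengths used. With the shared exon length SELENOS was at 1.53, against 1.68 for SELENOK, and with the downstream starts TXNRD1 was at 2.26. Both settings changed lengths only, with the counts unchanged. These shifts are therefore set by the lengths taken and do not show that SELENOS and SELENOK are alike. With CPM, which uses no length, the order was SELENOK at 2.77, SELENOS at 1.53, TXNRD1 at 1.44 and TXNRD2 at -2.002.

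Other genes lie inside the span of TXNRD1. These are EID3 on the same strand, a gene of 1 exon that takes 1.09% of the span and had 44 RNA-seq and 0 PRO-seq counts, and an antisense gene (ENSG00000257732) over 13.7% of the span, with 2 RNA-seq and 31 PRO-seq counts. Neither SELENOK nor SELENOS overlapped another counted TU. The only pseudogene copy found by name, SELENOKP3, had 0 RNA-seq counts and 2 PRO-seq counts. Whether counting used strand is not given in the sources analysed, and the part of these overlaps in the values was not tested.

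Of 15 other selenoprotein genes, 12 were counted and 4 passed the thresholds, of which 2 were called above the median mRNA and 1 below. For this and each list below, the shares over all TUs tested were 40.4% above and 49.9% below. Of the 8733 mRNAs alone, 3963 were called above and 3923 below. No list was tested against these backgrounds. SELENOI, an ethanolamine phosphotransferase of phospholipid synthesis, was at log2 2.71 (SE 0.0892, edgeR adjusted p = 7.55e-23), although its counted transcript holds only 4.87% of the canonical exon bases. MSRB1, a methionine sulfoxide reductase, was at 0.51 (SE 0.188, edgeR adjusted p = 0.0128) from 59 PRO-seq counts. SELENON, an ER protein of calcium handling, was at -0.02 (SE 0.149, edgeR adjusted p = 0.887), on a transcript with 37.1% of the canonical exon bases. SEPHS2, the selenophosphate synthetase that is itself a selenoprotein, was far below at -3.26 (SE 0.107, edgeR adjusted p = 7.19e-23), with 52.4 TPM in RNA-seq against 780.5 TPM in PRO-seq. Its single-exon TU of 2244 bp leaves 1244 bp for PRO-seq, the shortest such length among the selenoprotein genes with an estimate.

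The other 8 counted selenoprotein genes were under the thresholds. SELENOP, the secreted selenium carrier, had 376 RNA-seq and 139 PRO-seq counts (26.4 and 3.12 TPM), SELENOM had 78 and 38, and TXNRD3 had 148 and 123 (3.73 and 5.004 TPM). TXNRD3, the remaining thioredoxin reductase gene, was thus well below TXNRD1 and TXNRD2 in both assays. DIO2, an activating iodothyronine deiodinase, had 0 RNA-seq and 74 PRO-seq counts. GPX6 had 1 and 5, SELENOV 1 and 1, DIO1 0 and 1, and DIO3 0 and 0. Some were counted on transcripts unlike the canonical one. The counted span was 86459 bp for SELENOP (canonical 12013 bp), 15298 bp for SELENOM (2792 bp) and 176449 bp for DIO2 (13979 bp). The DIO2 transcript held 3.26% of the canonical exon bases. The part of this in their low values was not tested.

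The genes that make and insert selenocysteine were spread on both sides. Of 12 counted, 11 had an estimate, with 7 called above and 4 below the median mRNA and a median of 0.24 on the log2 scale. The highest were factors with wider roles: SARS1, the seryl-tRNA synthetase that charges the selenocysteine tRNA with serine, at 3.14 (SE 0.0527), the ribosomal protein gene RPL30 at 2.81 (SE 0.0466, counted on a transcript without a defined coding sequence that spans 20698 bp) and the exon junction helicase gene EIF4A3 at 1.71 (SE 0.0581). The lowest were LRP8, a receptor for the selenium carrier SELENOP, at -2.14 (SE 0.0480), SEPSECS, the enzyme that converts the serine to selenocysteine, at -0.60 (SE 0.0868), and EEFSEC at -0.54 (SE 0.109). SCLY, selenocysteine lyase, had 4 RNA-seq and 0 PRO-seq counts.

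The list of redox partners held genes of the thioredoxin and of the glutathione systems. Of its 15 genes, 12 had an estimate, with 10 called above and 2 below, and a median of 2.58, against 3.35 for TXNRD1 and -0.08 for TXNRD2. Of all TUs tested, 40.4% were called above and 49.9% below, and of the 8733 mRNAs 3963 were above and 3923 below. The list was not tested against these backgrounds. The highest were the peroxiredoxins PRDX5 at 4.50 (SE 0.109), PRDX4 at 4.41 (SE 0.0723) and PRDX1 at 3.84 (SE 0.0449), which reduce peroxides. The lowest were TXNIP, an inhibitor of thioredoxin, at -1.66 (SE 0.0398), the glutaredoxin GLRX2 at -0.59 (SE 0.0741, counted on a transcript annotated as a target of nonsense-mediated decay) and GCLM, a subunit of glutamate-cysteine ligase, at 0.31 (SE 0.0675). Under the thresholds were GLRX with 48 RNA-seq and 56 PRO-seq counts, GCLC with 72 and 226, and PRDX2 with 6648 RNA-seq counts and 0 in both PRO-seq libraries. GCLC was counted on a transcript of 592 nt that spans 94506 bp, and GLRX on one of 533 nt that spans 71408 bp.

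The 7 relatives that use cysteine in place of selenocysteine, or serve the same substrates, were mostly little expressed. GSR, glutathione reductase and a close relative of the thioredoxin reductases in fold, was at 2.16 (SE 0.0508), between TXNRD1 and TXNRD2, and the mitochondrial MSRB2 was at 0.99 (SE 0.137), both called above the median mRNA. The other 5 were under the thresholds, with 6 RNA-seq and 0 PRO-seq counts for GPX5, 0 and 2 for GPX7, 32 and 7 for GPX8, 0 and 14 for MSRB3 and 52 and 429 for MSRA.

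Among the 8 genes of ER-associated degradation and ER quality control, where SELENOK and SELENOS act, 7 had an estimate, with 5 called above and 2 below and a median of 0.24. VCP, the p97 segregase, was at 1.47 (SE 0.0428), the glycoprotein sensor UGGT1 at 1.02 (SE 0.0441) and SEL1L, the adaptor of the ubiquitin ligase, at 0.36 (SE 0.0596). The lowest were SYVN1, that ligase, at -5.64 (SE 0.207), DERL2 at -1.33 (SE 0.112) and UGGT2 at 0.19 (SE 0.0563). SYVN1 was counted on a retained-intron transcript of 656 nt with 14 RNA-seq counts, so its value is that of this transcript. DERL3 had 61 RNA-seq and 17 PRO-seq counts and was under the thresholds. SELENOK at 1.68 lay above all 7, and SELENOS at 0.29 lay between SEL1L and the derlin gene DERL1 at 0.24. Of the K562 markers, 4 had an estimate, with HBG1 at 3.79, GATA1 at 1.47 and KLF1 at 0.85 called above and TAL1 at -0.87 called below.

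**Figure D3:**
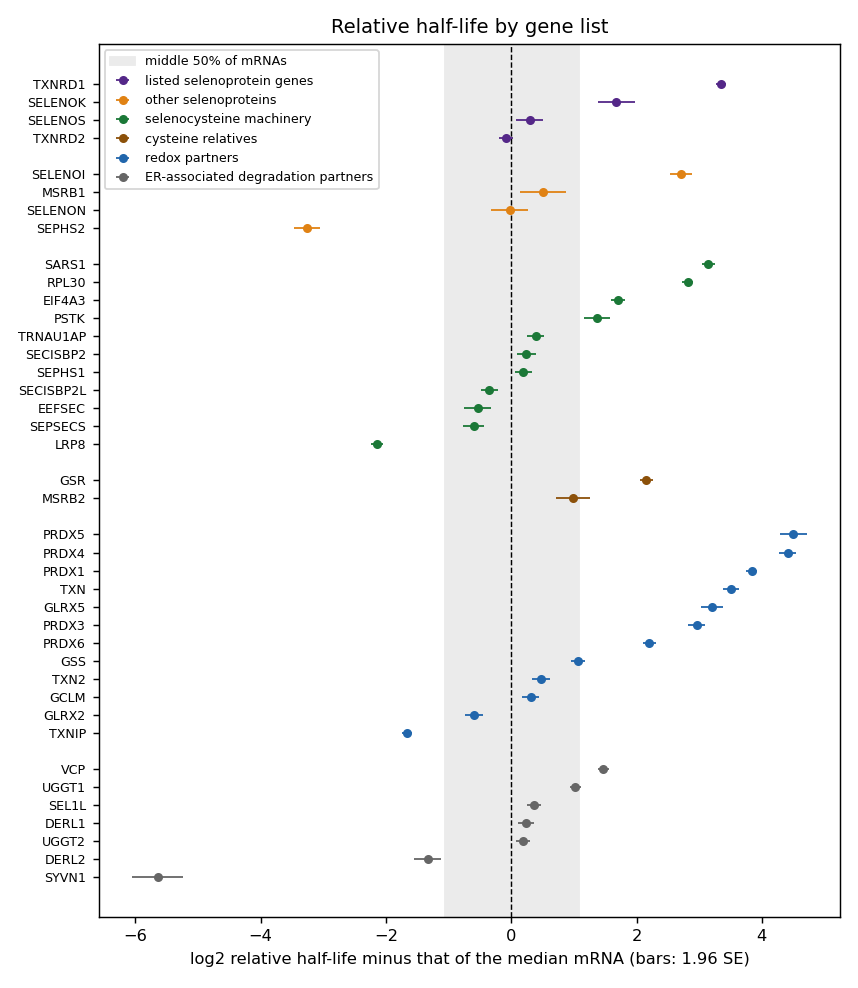
log2 relative half-life, as the difference from the median mRNA, of the 4 listed genes and of every gene with an estimate in the 5 other lists, with bars of 1.96 SE from the edgeR fit and the middle 50% of mRNAs shaded. TXNRD1 lies at 3.35, near SARS1 and TXN, and TXNRD2 lies at the dashed line.

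The mRNAs whose levels were most like those of TXNRD1 over the 6 libraries were APOC1, an apolipoprotein gene, and EMC4, a subunit of the ER membrane protein complex. The root mean square difference of log2(TPM + 0.1) from TXNRD1 was 0.0682 for APOC1 and 0.0858 for EMC4. APOC1 had 292.4 TPM in RNA-seq and 47.2 TPM in PRO-seq, and a log2 relative half-life of 3.27 (SE 0.110). EMC4 had 308.6 and 43.0 TPM, and 3.48 (SE 0.106).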

How the data were processed

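The authors deposited, for each of the 4 RNA-seq and 2 PRO-seq libraries, raw read counts per transcript, on exons for RNA-seq and over the span without its ends for PRO-seq. By the submitters' notes and the methods, reads were trimmed (Cutadapt), aligned (HISAT2) to GRCh38 and counted (HTSeq) on GENCODE transcripts. Their versions, and whether strand was used, are not given in the sources analysed, and the notes name 500 bp left out for PRO-seq, which the methods place at each end, so 1000 bp were taken off here. Records naming no transcript (66.5% to 68.6% in RNA-seq, 86.5% and 88.6% in PRO-seq) were left out of totals and tests.

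Of 42371 Ensembl transcripts, 88.1% were matched by identifier to GENCODE on GRCh37, which gave lengths, classes, coordinates and sequences, and lengths may differ from those counted on. The unmatched held at most 3.69% of the counts of a library. No transcript was matched for 6 of the 10 genes, nor for GPX2, GPX3 and SELENOO.

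TUs of mRNA, lincRNA, antisense and pseudogene classes exceeding 10 TPM (PRO-seq) and 1 TPM (RNA-seq), 9925 in all, were fitted with edgeR 4.0.16 in R 4.3.3: glmQLFit and glmQLFTest on the counts, TMM, offsets for length and for the median mRNA, Benjamini-Hochberg adjustment over all TUs and a threshold of 0.05. SE is the log2 value over the square root of F. DESeq2 1.42.0 was an alternative, and Python 3.11.15 was used otherwise. Further alternatives changed lengths, thresholds, normalization, replicates and pairing, and those using downstream starts and shared exon length were chosen after seeing the data. Both of the latter changed lengths only, with the counts as deposited. In a simulation with 9762 TUs, 85.4% of 199 TUs changed 2-fold were recovered, with 10 false calls. There the PRO-seq rates and the spread of both assays were taken from RNA-seq, and most TUs were unchanged. These figures are therefore not the recovery or false calls of the test on the real libraries. P-values measure the spread between libraries of 1 flask, and reads were not reduced to molecules.

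The libraries were treated as unpaired. The log ratios of replicates 1 and 2 in the 2 assays correlated across 9837 TUs with r = -0.01. This value cannot exclude a pairing, since libraries of 1 flask may differ by counting noise alone. The members and lists were chosen with earlier results of these data known. Named were all members and, of each other list, the 3 highest and 3 lowest values (all where 6 or fewer had one), genes under the thresholds by their counts, name-matched pseudogene copies and, for TXNRD1, the 2 most alike mRNAs. Genes named for a comparison of value, such as TXN and DERL1, were added after seeing the values. Some genes are not reported here.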

Additional observations from a re-analysis of the deposited data

Results flagged for a closer look

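Among the 4 RNA-seq libraries, TXNRD1 in replicate 3 stood apart: at 306.2 TPM it lay above the other 3 (290.3 to 292.7 TPM), a gap of 0.846 of the whole range and past Dixon's 95% critical value for 4 samples. Chance alone marks about 1 in 20 such groups, and 4 groups were looked at. The values for TXNRD2 (0.801), SELENOS (0.483) and SELENOK (0.263) were under the critical value. Without RNA-seq replicate 3, TXNRD1 was at 3.34 on the log2 scale.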

How the results depend on the processing

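TXNRD1 (1.44 to 4.01) and SELENOK (1.51 to 2.77) were above the median mRNA in all 19 alternatives and past the threshold in all 18 that gave a test. SELENOS (0.25 to 1.53) was above in all 19 but past the threshold in 15 of 18, the exceptions being DESeq2 (adjusted p = 0.0562), a tested 2-fold difference (adjusted p = 1) and the fit without PRO-seq replicate 2. TXNRD2 changed most. It was above the median mRNA with TUs of at least 1 summed count (0.58, edgeR adjusted p = 1.03e-24) or at least 10 (0.0371, edgeR adjusted p = 0.539), and was called below with 500 bp removed (-0.12, edgeR adjusted p = 0.0448), with CPM without length (-2.002), without RNA-seq replicate 2 and with the span from downstream starts (-0.79). The number of the 4 genes below was then 1 in each of these 4 settings, against 0. With the downstream starts the shift is set by the length taken, with the counts unchanged. Without TPM thresholds, the median mRNA that values are relative to is that of a larger set.

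Over all TUs, 4009 were above and 4957 below, with 6633 and 7588 at 1 summed count, where more TUs are tested, and 2138 and 2895 for a tested 2-fold difference. The median of the 4 genes, 0.98, was 1.48 with CPM, 1.64 at 1 and 1.10 at 10 summed counts, and 1.60 with the shared exon length. The shared exon length changed only the RNA-seq length of the genes, with the counts unchanged. Beyond this and the changes in the set tested, the cause was not tested.

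Leaving out each library in turn gave 2 to 3 genes above and 0 to 1 below, 3872 to 4005 TUs above and 4783 to 4943 below, and a median of 0.91 to 1.07. TXNRD1 then ran from 3.33 to 3.37, TXNRD2 from -0.14 to -0.02, SELENOK from 1.51 to 1.87 and SELENOS from 0.26 to 0.32.

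The assays share replicate numbers 1 and 2 and were treated as unpaired. With the replicate number as a block, TXNRD1 was at 3.33, TXNRD2 at -0.03, SELENOK at 1.66 and SELENOS at 0.29 (edgeR adjusted p = 0.0404), with 3 genes above and 0 below, and 3919 TUs above and 4856 below.

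SELENOK rests on 75 PRO-seq counts and SELENOS on 210, and both have little span left for PRO-seq, so their values are the least precise of the 4.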
